A study of Mus musculus with 4 samples.

Results

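The otic vesicle identity genes followed here are *Oc90*, *Fbxo2*, *Lmx1a*, *Sox10*, *Gbx2*, *Dlx5*, *Hmx2* and *Hmx3*. They were taken by symbol, and they account for 8 of the 32285 gene rows in each count matrix. The 4 libraries hold RNA counts of single cells of the *Tbx1* lineage from E9.5 mouse embryos. Both cHet libraries were from Tbx1Cre/+; Kmt2d F/+; GFP F/+ embryos, in which 1 copy of *Kmt2d*, a histone H3 lysine methyltransferase gene, can be inactivated. Both cKO libraries were from Tbx1Cre/+; Kmt2d F/F; GFP F/+ embryos, in which both copies can be. The Cre is a knock-in at *Tbx1*, so all embryos of both groups were also *Tbx1* heterozygotes. The labels give the strain as outbred Swiss Webster, whereas the study's methods describe a mix of Swiss Webster and C57BL/6. The groups hold no embryo with intact *Tbx1* or *Kmt2d*. The pharyngeal region from the first arch on and the heart were dissected, embryos of 1 genotype were pooled, and living GFP-positive cells were sorted. Replicate 1 (Rep1) pooled 4 embryos per library and was made with an earlier 10x Genomics kit, and replicate 2 (Rep2) pooled 3 embryos with a later one. No label ties a cell to an embryo, so each library counts as 1 replicate, with n = 2 for each genotype.

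The otic vesicle is the epithelial sac that forms from the otic placode of the head ectoderm and gives rise to the inner ear and to the neurons of its ganglion. Its early dorsal and lateral walls, which form the vestibular organs and the endolymphatic duct, are known for homeobox genes of the Dlx, Gbx and Hmx families, and its ventral wall for the genes of neurons and sensory patches. *Tbx1* itself is active in the vesicle, which places its cells in the sorted lineage. Of the 8 genes, *Oc90* encodes otoconin-90, a matrix protein of the crystals that load the balance organs. *Fbxo2* encodes a subunit of a ubiquitin ligase that binds glycoproteins. *Lmx1a* (LIM homeodomain), *Gbx2*, *Dlx5*, *Hmx2* and *Hmx3* (homeodomain) and *Sox10* (SOX family, also a neural crest regulator) encode transcription factors.

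In GENCODE M21 (GRCm38), *Oc90* (ENSMUSG00000015001) and *Sox10* lie on chromosome 15, *Lmx1a* and *Gbx2* on chromosome 1, *Fbxo2* on chromosome 4 and *Dlx5* on chromosome 6. *Hmx2* (chromosome 7, 131548773 to 131558014, plus strand) and *Hmx3* (131542867 to 131544925, plus strand) are neighbours, with 3847 bases and no annotated gene between them. Both lie within the annotated span of *Fgfr2* on the opposite strand, whose exons do not overlap theirs. An antisense transcript, D130058E05Rik, overlaps exons of *Gbx2*, so its reads are uncertain where counting did not use strand. The promoters of the *Hmx* pair are shown because *Hmx2* was the member called between genotypes and *Hmx3* the gene nearest to it in pattern. RefSeq (GRCm38.p6) gave 300 bases at each start, 250 before and 50 after, for 5 of the 8 genes, with 2 starts for *Hmx2*. Sequences are on the plus strand, and capitals mark the only match to 4 motifs searched on both strands. These were the TATA box (TATAAA), an NK-type homeodomain motif (CAAGTG, which is also 1 form of the E-box CANNTG), a homeodomain core motif (TAATTA) and a SOX motif (ACAAAG).
Hmx3, chr7:131542713-131543012: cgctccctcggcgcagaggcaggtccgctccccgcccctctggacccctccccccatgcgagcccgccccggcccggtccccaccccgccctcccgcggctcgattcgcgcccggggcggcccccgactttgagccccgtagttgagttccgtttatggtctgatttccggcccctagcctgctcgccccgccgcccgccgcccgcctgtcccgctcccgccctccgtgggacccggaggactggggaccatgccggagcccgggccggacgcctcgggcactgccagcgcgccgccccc
Hmx2, first start, chr7:131548507-131548806: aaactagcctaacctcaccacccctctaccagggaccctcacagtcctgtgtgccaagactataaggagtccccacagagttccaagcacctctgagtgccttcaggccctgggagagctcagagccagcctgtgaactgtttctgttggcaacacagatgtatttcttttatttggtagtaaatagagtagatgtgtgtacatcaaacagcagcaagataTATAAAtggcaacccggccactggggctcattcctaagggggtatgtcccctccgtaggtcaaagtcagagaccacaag
Hmx2, second start, chr7:131554043-131554342: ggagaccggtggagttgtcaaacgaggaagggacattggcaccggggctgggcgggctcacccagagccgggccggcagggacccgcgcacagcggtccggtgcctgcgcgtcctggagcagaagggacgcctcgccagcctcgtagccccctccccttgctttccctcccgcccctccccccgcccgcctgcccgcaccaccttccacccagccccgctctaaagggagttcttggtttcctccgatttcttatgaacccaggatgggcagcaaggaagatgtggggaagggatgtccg
A TATAAA stood 29 bases before the first *Hmx2* start, and 13.6% of the 32851 promoters in the RefSeq table hold this motif somewhere in the same window. None of the 4 motifs was found at the second *Hmx2* start or at *Hmx3*. The NK-type, homeodomain core and SOX motifs were held by 13.6%, 5.29% and 18.7% of all promoters. The GC content was 50% at the first *Hmx2* start, 67.7% at the second and 78% at *Hmx3*, against a median of 52.7% over all promoters.

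The libraries held between 179454146 and 234726019 unique molecular identifiers (UMIs, each 1 captured transcript), and 33448 cells with at least 3000 genes were kept. The 8 genes were left out of the clustering and of every marker list, so that cells were not named by them. One cluster of 575 cells passed the rule for the otic vesicle. It had all 8 epithelial markers, with *Tbx2*, *Pax2*, *Gata3*, *Lfng* and *Spp1* among the otic markers at least 2-fold above all other cells after 5 CPM were added to both. All 12 listed otic markers were detected in it in every library. It held 84 cells in cHet Rep1, 89 in cKO Rep1, 132 in cHet Rep2 and 270 in cKO Rep2, which was 1.41% to 2.26% of the cells of a library. The otic vesicle-like cells of cHet Rep1 stood apart in mesenchyme markers (*Prrx1*, *Twist1* and *Tbx18*), which summed to 66.9 CPM (counts per 1000000 UMIs) there and to 9.02 CPM in cKO Rep1, 13.8 CPM in cHet Rep2 and 4.47 CPM in cKO Rep2. *Tbx1* was present in these cells at 83.7 to 121 CPM. *Kmt2d* stood in them at 17.1 and 16.3 CPM (cHet and cKO, Rep1) and at 22.9 and 21.6 CPM (Rep2). How these counts, taken from the transcript's 3′ end, respond to the loss of the floxed exons was not tested, so they check no genotype. By RT-qPCR the study found *Kmt2d* depleted in cKO against Tbx1Cre/+ embryos at E9.5. In Rep1 87 cell barcodes and in Rep2 71 were shared between the cHet and the cKO library, and none across replicates.

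All 8 genes were detected in the otic vesicle-like cells of every library. Levels below are CPM of the UMIs summed over the cells of a type, given for Rep1 (cHet, then cKO) and then for Rep2 (cHet, then cKO). They are compared between libraries and cell types but not between genes, because 3′ counts of different genes are not on 1 scale. *Lmx1a* stood at 247, 200, 274 and 339 CPM, and 82.6% to 89.3% of the cells held a UMI of it. *Dlx5* stood at 97.7, 151, 150 and 187 CPM (70.2% to 80.9% of cells). The lowest of these *Dlx5* values was that of cHet Rep1, and within each replicate the cKO library was the higher. *Sox10* stood at 77.8, 95.3, 65.8 and 64.3 CPM, the higher pair being that of Rep1, in 65.2% to 84.3% of cells. *Hmx2* stood at 56.9, 90.6, 77.1 and 125 CPM (52.3% to 77.5% of cells). *Hmx3* stood at 26.6, 39.9, 55.5 and 67.8 CPM (36.9% to 57.3% of cells). Both *Hmx* genes were lowest in cHet Rep1 and highest in cKO Rep2, and for *Hmx2* both cKO libraries lay above both cHet libraries. *Oc90* stood at 57.9, 30.1, 69.3 and 75.6 CPM, but in only 29.2% to 33.3% of the cells of a library, the narrowest range of shares among the 8. Its level in cKO Rep1 was the low one. These shares are at unequal depth, and with every cell thinned to 5000 UMIs the share in cKO Rep1 was the lowest too (12.4%, against 17.9% in cHet Rep1, 19.7% in cHet Rep2 and 17.8% in cKO Rep2). *Fbxo2* was the steadiest in level, at 23.7, 30.9, 25.7 and 25.7 CPM. *Gbx2* was the sparsest, with 24, 7, 66 and 120 UMIs, which came to 11.4, 3.01, 20.7 and 23.3 CPM in 5.62% to 15.5% of cells. Exact Poisson 95% intervals, which cover counting error only, ran from 1.21 to 6.19 CPM for *Gbx2* in cKO Rep1 and from 7.30 to 16.9 CPM in cHet Rep1.

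Outside the otic vesicle the 8 genes ranged from few UMIs to a level as high as in the vesicle. *Oc90*, *Lmx1a*, *Sox10*, *Hmx2* and *Hmx3* had few UMIs elsewhere. For each of them the lowest otic library lay above the highest library of every other type. *Oc90* had 0 UMIs in the endoderm-like cells of all 4 libraries, which allows up to 0.955% of cells with a UMI in the largest of them (314 cells) and 4.69% in the smallest (64 cells), and sets no limit on cells that express the gene below detection. In the ectoderm-like cells it had 0, 0, 0 and 3 UMIs, the last in a single cell. The highest *Oc90* level elsewhere, 2.06 CPM, was in the neural tube-like cluster of cHet Rep1, and its 11 UMIs came from 4 of 290 cells. In that library the mesenchyme markers of these cells (298 CPM) summed to more than their neural tube markers (208 CPM). *Lmx1a* reached at most 6.36 CPM outside the vesicle, in the same cells, and 1.62 to 3.01 CPM in the ectoderm. *Sox10* reached 7.48 CPM in the neural tube-like cluster, which also held neural crest and glia markers (summed level 135 to 267 CPM), and had 1 UMI in the endoderm. *Sox10* also marks the neural crest. In the otic vesicle-like cells 4 to 6 of the 7 neural crest and glia markers were detected, and their sum was 91.1 to 142 CPM, against 28.6 to 37.7 CPM in the ectoderm and 21.0 to 27.8 CPM in the endoderm. *Foxd3* of this list was at 0 in all 4 libraries of each of these 3 epithelia. The part of neural crest or glial cells in the otic *Sox10* level was not tested. For all 5 genes the type next in the order (neural tube-like, or endoderm-like for the *Hmx* pair) overlapped in range with the type after it.

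For *Hmx2* and *Hmx3* the type next to the vesicle was the endoderm, at low counts. *Hmx2* had 1, 11, 18 and 4 UMIs there (0.578, 7.06, 4.16 and 0.632 CPM), and *Hmx3* had 0, 8, 11 and 10 UMIs (0, 5.14, 2.54 and 1.58 CPM). The share of endoderm-like cells with a UMI ran from 1.18% to 9.38% for *Hmx2* and from 0% to 10.9% for *Hmx3*. In the endothelium, a mesodermal type taken as lacking these genes, no more than 0.247% and 0.151% of the cells held one. Median depths were alike, at 21089 UMIs per cell in the endoderm-like cluster and between 17278 and 25027.5 in the endothelial clusters. No order of the genotypes can be read from these counts, since the cKO library was the higher for *Hmx2* in Rep1 and the lower in Rep2.

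*Fbxo2* had a clear second site in the neuronal-like cells, at 14.6, 13, 17.9 and 9.25 CPM. There 26.7%, 23.0%, 27.5% and 15.2% of the cells held a UMI, against at most 0.494% in the endothelium. All of these levels lay below the otic ones and above those of every remaining type. In the ectoderm and endoderm *Fbxo2* stayed between 0.578 and 2.03 CPM. The neuronal-like cluster was named from *Neurod1*, *Elavl3*, *Tubb3* and further neuronal genes, and the labels do not say to which ganglia its cells belong.

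*Dlx5* UMIs were also found in the ectoderm. In the ectoderm-like cells it stood at 9.04, 9.32, 11.0 and 13.9 CPM, in 13.6% to 16.0% of cells, whereas the endoderm had 1, 0, 0 and 3 UMIs. The anterior second heart field-like cells (aSHF) had 2.73 and 3.08 CPM in Rep1 and 12 and 8.52 CPM in Rep2. The neural tube-like cluster had 19.3 and 19.1 CPM in Rep1, from 290 and 247 cells, and 107 and 136 CPM in Rep2, from only 21 and 30 cells. In cKO Rep2 the neural tube markers of this cluster summed to 26.5 CPM, against 208 to 352 CPM in the other 3 libraries, and its mesenchyme markers summed to 1115 CPM. In cHet Rep2 the mesenchyme markers (496 CPM) also exceeded the neural tube markers (266 CPM), with 191 CPM of endoderm markers beside them. The mesenchyme markers did so in cHet Rep1 as well (298 against 208 CPM), but not in cKO Rep1 (224 against 352 CPM). By these sums the cells of this cluster go against its name in every library but cKO Rep1. The part of mesenchymal cells in its *Dlx5* level was not tested. The otic range of *Dlx5* overlapped with that of the neural tube-like cluster through its Rep2 libraries, which held few of its cells.

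*Gbx2* was not particular to the otic vesicle in level. It was highest in the endoderm-like cells, at 15, 8.99, 22.9 and 34.4 CPM, and there 20%, 17.2%, 30.6% and 33.8% of the cells held a UMI. In the ectoderm-like cells it stood at 11.9, 5.27, 16.9 and 18.6 CPM. In the multilineage primed progenitor-like mesoderm (MLPs) it stood at 5.30, 3.91, 10.6 and 10.5 CPM. The ranges of endoderm, otic vesicle and ectoderm overlapped. In all 3 epithelia the library with the lowest *Gbx2* level was cKO Rep1 and the one with the highest was cKO Rep2. In the vesicle its UMIs were concentrated in few cells in Rep2. There the 66 UMIs of cHet came from 16 cells and the 120 of cKO from 33, whereas the 218 UMIs of the endoderm in cKO came from 106 cells. Rep1 had 24 UMIs in 15.5% of the cHet cells and 7 in 5.62% of the cKO cells, too few to show this.

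**Figure D1:**
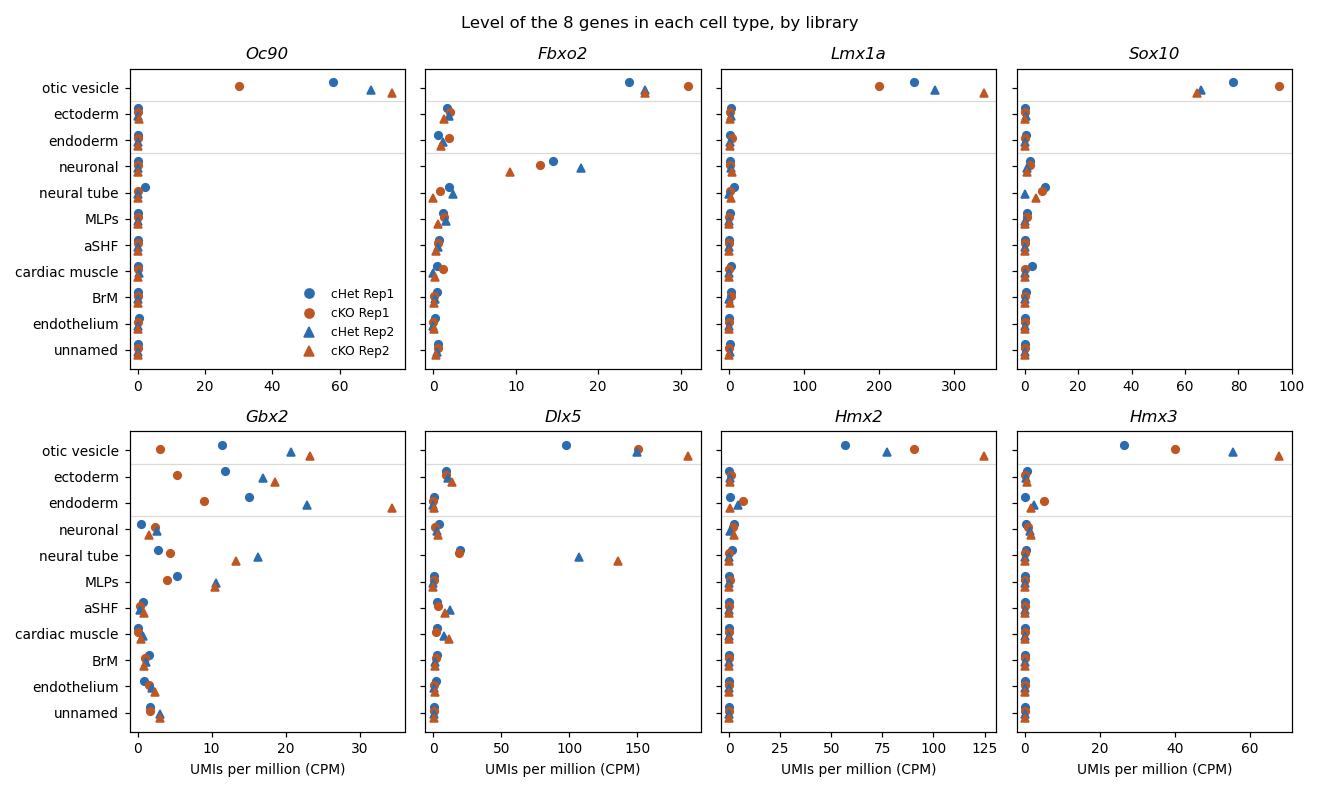
Level of each gene (CPM, linear axis, own scale in each panel) in 10 named cell types and the unnamed clusters, with 1 point per library (blue cHet, orange cKO, circles Rep1, triangles Rep2). *Oc90*, *Lmx1a*, *Sox10*, *Hmx2* and *Hmx3* are set apart in the otic vesicle, *Fbxo2* is also seen in neuronal-like cells, *Dlx5* in the neural tube-like cluster, and *Gbx2* is as high in endoderm and ectoderm as in the vesicle.

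RNA set free from broken cells is captured with every cell, so a low count in another type need not be that type's own. Barcodes under 1000 UMIs were read beside the cell types as the lowest part of each library, but they are no clean measure of free RNA. In cKO Rep1 and in both Rep2 libraries all deposited barcodes are ones the study counted as cells, whereas cHet Rep1 holds many more barcodes than that, so these low barcodes differ in kind between libraries. What they hold besides free RNA was not tested. They held 0 to 1.26 CPM of *Oc90*, 0 to 2.52 CPM of *Fbxo2*, 2.73 to 12.6 CPM of *Lmx1a* and 0 to 4.79 CPM of *Sox10*. For *Gbx2* they held 1.48 to 3.61 CPM, for *Dlx5* 1.81 to 12 CPM, for *Hmx2* 0 to 4.51 CPM and for *Hmx3* 0 to 2.22 CPM. These levels rest on at most 26 UMIs of a gene in a library. The 95% intervals of *Oc90*, *Lmx1a*, *Hmx2* and *Hmx3* lay above those of the low barcodes in all 4 libraries in the vesicle and in no library in any other type. That of *Sox10* did so in all 4 in the vesicle and in 1 in the neural tube-like cluster. The interval of *Gbx2* lay above that of the low barcodes in 3 of 4 libraries in the endoderm, in the ectoderm and in the vesicle, and in 2 of 4 in the MLPs. That of *Fbxo2* in the neuronal-like cells was above it in 4 of 4, and that of *Dlx5* in the ectoderm in 1 of 4, although the ectoderm had the higher *Dlx5* level in 3 of 4. In the neural tube-like cluster the *Dlx5* interval was above that of the low barcodes in 3 of 4.

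Free RNA of 1 source keeps its genes in 1 ratio. Over all libraries the otic vesicle-like cells held 802 UMIs of *Oc90* and all other cells held 48. For each UMI of *Oc90* there were 0.271 UMIs of *Gbx2* in the vesicle (exact 95% interval 0.232 to 0.315) and 50.2 outside it (37.8 to 68.3). *Fbxo2* had 0.419 UMIs per UMI of *Oc90* in the vesicle and 12.4 outside, and *Dlx5* had 2.49 and 26.8. The other members were nearer to 1 ratio: *Lmx1a* had 4.49 and 11.9, *Sox10* 1.16 and 4, *Hmx2* 1.52 (1.39 to 1.66) and 2.56 (1.82 to 3.66), and *Hmx3* 0.842 (0.759 to 0.934) and 1.52 (1.04 to 2.24). With the libraries summed, the interval outside lay above that in the vesicle for all 7 genes. Within single libraries this held in all 4 only for *Gbx2*, *Fbxo2* and *Dlx5*. In cHet Rep1, which held 24 of the 48 *Oc90* UMIs outside the vesicle, the ratio was lower outside for *Hmx2* (0.984 in the vesicle and 0.958 outside) and for *Hmx3* (0.459 and 0.333), with overlapping intervals. This rests on the main clustering. With the 8 genes kept in the clustering, the otic vesicle-like cells of cHet Rep1 went from 84 to 96. The UMIs outside them then fell from 24 to 11 for *Oc90*, from 23 to 16 for *Hmx2* and from 8 to 6 for *Hmx3*. *Hmx2* thus had more UMIs outside than *Oc90* in that setting. The intervals of *Lmx1a*, *Hmx2* and *Hmx3* overlapped in both Rep1 libraries and were apart in both Rep2 libraries, and those of *Sox10* overlapped in cKO Rep1 and cHet Rep2. In the barcodes under 1000 UMIs, with only 7 UMIs of *Oc90*, the intervals of *Lmx1a*, *Sox10*, *Dlx5*, *Hmx2* and *Hmx3* overlapped with those of the vesicle, and those of *Fbxo2* (2, from 0.755 to 5.86) and *Gbx2* (2.71, from 1.09 to 7.64) did not.

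**Figure D2:**
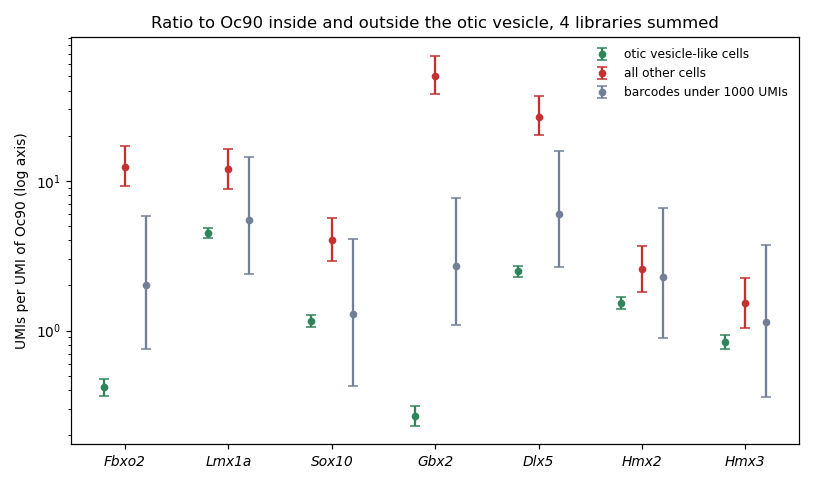
UMIs of each gene per UMI of *Oc90* (log axis) in otic vesicle-like cells (green), in all other cells (red) and in barcodes under 1000 UMIs (grey), with the 4 libraries summed and exact 95% intervals. *Gbx2*, *Fbxo2* and *Dlx5* rise most from the vesicle to the other cells. For *Hmx2* and *Hmx3* the summed ratios differ least, and in cHet Rep1 alone both were lower outside in the main clustering, which is the one shown.

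The share of a gene's UMIs that lay in the otic vesicle-like cells followed a like order. It was 83.6% to 98.2% for *Oc90*, 83.9% to 94.4% for *Hmx2*, 86.9% to 93.1% for *Hmx3*, 74.8% to 92.4% for *Lmx1a* and 65.1% to 94.8% for *Sox10*. It was 42.6% to 68.3% for *Dlx5*, 25.4% to 53.4% for *Fbxo2* and 2.30% to 10.8% for *Gbx2*. For *Oc90*, *Fbxo2*, *Lmx1a*, *Sox10*, *Dlx5* and *Hmx2* the lowest share was that of cHet Rep1. These shares are over the kept cells in the main clustering. With the 8 genes kept in the clustering, 11 *Oc90* UMIs of cHet Rep1 lay outside the vesicle in place of 24, so its *Oc90* share depends on the clustering. Joint detection was rare outside the vesicle. UMIs of at least 3 of the 8 genes were held by 83.3% to 89.9% of the otic vesicle-like cells of a library, against 0.0542% to 0.190% of all other cells (11, 6, 5 and 8 cells). Those cells lay mostly in the neuronal-like, neural tube-like, ectoderm-like and endoderm-like clusters, and whether they were undetected doublets was not tested. With every cell thinned to 5000 UMIs, which left out no otic cell, the share with at least 3 of the genes was 33.3% in cHet Rep1, 44.9% in cKO Rep1, 35.6% in cHet Rep2 and 47.8% in cKO Rep2.

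Within the vesicle the 8 genes did not all mark the same cells. *Oc90* separated a minority. After thinning, 15 of 84, 11 of 89, 26 of 132 and 48 of 270 cells held an *Oc90* UMI, and the shares below are means of the 4 libraries over cells with and without one. *Gbx2* was found in 14.4% of the cells with *Oc90* and in 2.53% of those without. *Dlx5* was found in 62.6% and 39.2%, *Hmx2* in 40.2% and 29.1%, *Hmx3* in 27.4% and 17.6% and *Lmx1a* in 71.7% and 61.2%. These 5 genes were more frequent beside *Oc90* in all 4 libraries, whereas *Fbxo2* (19.3% and 12.8%) and *Sox10* (24.0% and 32.4%) were not. Of the 79 further genes of the otic network list, 41 had at least 50 UMIs in the thinned otic cells. *Fgfr2*, a receptor for fibroblast growth factors, was more frequent beside *Oc90* in all 4 libraries (54.1% with and 39.6% without *Oc90*). *Pax8*, a paired-box factor of the placode, was so too (12.1% and 10.3%), but its shares were nearly equal in both Rep1 libraries. In cKO Rep1 they were 9.09% with and 8.97% without *Oc90*. In the other direction, 10 genes were less frequent beside *Oc90* in all 4. These included the placodal factors *Eya4* (28.9% with and 47.3% without), *Pax2* (8.72% and 21.3%) and *Sox2* (46.0% and 65.3%), a factor of neural and sensory progenitors. They also included *Spp1* (15.6% and 42.7%), which encodes osteopontin, *Jag1* (25.3% and 43.1%), a Notch ligand gene, *Notch1* (9.17% and 20.8%) and *Lfng*. Of the 41 genes, 29 did not keep to 1 side in all 4 libraries. How many would keep to 1 side by chance was not tested. *Lfng*, which modifies Notch receptors, had no UMI in any thinned cell with *Oc90* and was found in 10.0% of the others. Also among the 10 less frequent genes were *Irx3* (17.4% and 34.1%) and *Cyp26a1* (2.79% and 12.8%), which encodes an enzyme that degrades retinoic acid. Some of these genes, such as *Pax2*, *Lfng* and *Spp1*, also served to name the cluster. They were picked out after their values were seen, and the split by a measured gene is a description without a test.

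**Figure D3:**
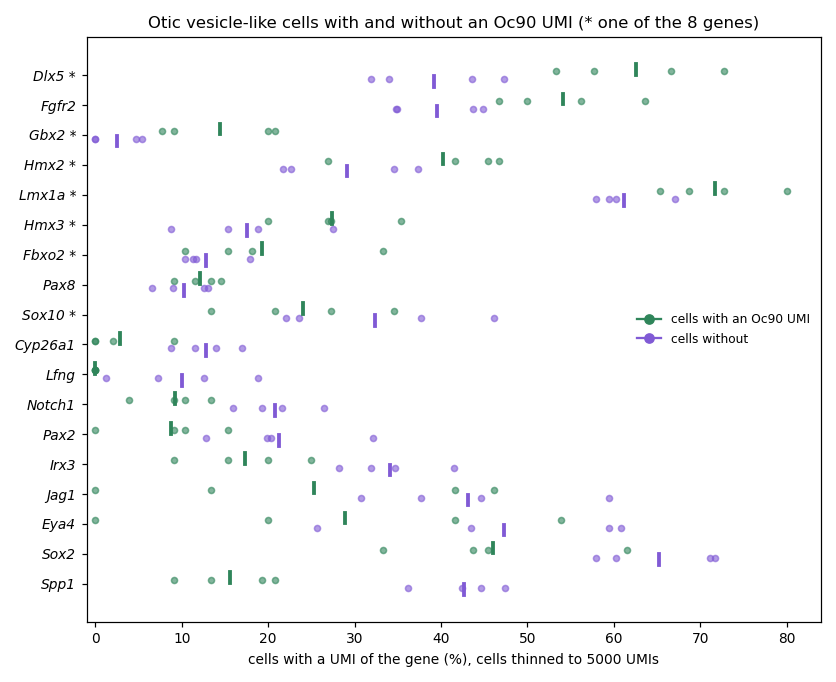
Share of otic vesicle-like cells with a UMI of a gene, in cells thinned to 5000 UMIs, for cells with (green) and without (violet) an *Oc90* UMI. Each point is 1 of the 4 libraries and each bar their mean, for the other 7 members (starred) and 11 of the network genes that lay on 1 side in all 4 libraries. *Dlx5* and *Gbx2* are more frequent beside *Oc90*, whereas *Spp1* and *Lfng* are less frequent.

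Over single otic cells the members formed loose pairs. Pearson's r of log-scaled counts within a library was highest for *Hmx2* with *Hmx3*, at 0.417 to 0.556. It was 0.205 to 0.454 for *Dlx5* with *Hmx2*, 0.114 to 0.389 for *Oc90* with *Dlx5* and 0.137 to 0.426 for *Oc90* with *Gbx2*. *Sox10* and *Fbxo2* showed no steady tie: for both, r with every other member changed sign between libraries. For *Fbxo2* with *Dlx5*, *Hmx2* and *Hmx3*, r was above 0 only in cHet Rep1 (0.087, 0.087 and 0.013). In cKO Rep1 and both Rep2 libraries it ran from -0.374 to -0.048 for these pairs. These are correlations over the 84 to 270 cells of a library, which share its preparation, and sparse counts lower them.

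Over cell types and libraries, the pattern of a gene was compared with that of 10758 genes that had at least 50 UMIs in the otic vesicle-like cells. Likeness was Pearson's r over 44 values (11 types in 4 libraries) of log2(CPM + 5). The genes nearest to *Oc90* were *Cnmd* (r = 0.990), which encodes the cartilage protein chondromodulin, *Otog* (0.985), which encodes otogelin of the membranes over the inner ear sensory cells, and *Lmx1a* (0.983). *Cnmd* was also nearest to *Lmx1a* (0.988). *Hmx2* and *Hmx3* were nearest to each other (0.992). *Dlx5* was nearest to *Dlx6* (0.959), which lies 9236 bases away on the opposite strand of chromosome 6, with 1 annotated gene between them. *Sox10* was nearest to *Lmx1a* (0.969) and *Fbxo2* to *Fbxo44* (0.922), another F-box gene. The lowest of these values was that of *Gbx2* with *Frrs1* (0.819). High values are shared by genes that are set apart in 1 type, and they say nothing of control.

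The study asks how loss of the second *Kmt2d* copy alters gene expression in the *Tbx1* lineage. In the otic vesicle-like cells *Hmx2* was the only one of the 8 genes past the threshold, and it was higher in cKO. Scaled by TMM, *Hmx2* stood at 65.5 CPM in cHet and 104 CPM in cKO of Rep1, and at 68.2 CPM in cHet and 109 CPM in cKO of Rep2, and the genotypes did not overlap. The log2 fold change was 0.67 (SE 0.13, edgeR quasi-likelihood test with the replicate as a block, adjusted p = 0.0111), with 0.66 in Rep1 and 0.69 in Rep2. Over all 11078 genes tested, 55 (0.496%) were called at an adjusted p under 0.05, 16 of them higher and 39 lower in cKO. This balance turned without the cells that held a mesenchyme marker UMI (37 higher and 21 lower) and with doublets kept (5 and 3). More genes were lower with DESeq2 size factors, without the filter on low counts, at 1000 genes per cell and with the members in the clustering. Genes lower in cKO, picked out after their values were seen, included the mesenchymal *Col3a1*, *Prrx1* and *Twist1*, each highest in cHet Rep1. With the cells that held a UMI of *Prrx1*, *Twist1* or *Tbx18* left out (20, 17, 23 and 20 cells), *Hmx2* stayed past the threshold (log2 fold change 0.56, SE 0.13, edgeR adjusted p = 0.00357). The call did not hold in the fit without the replicate block (0.67, edgeR adjusted p = 1.00), in DESeq2 (0.70, adjusted p = 1.00), with doublets kept (0.53, edgeR adjusted p = 0.150) or with cells thinned to 5000 UMIs (0.81, edgeR adjusted p = 0.293). With 1 of the 4 libraries left out, the log2 fold change of *Hmx2* was 0.64 to 0.74. Those fits could not keep the block, and in them 1 genotype has a single library that is assumed to vary like the other group, so their adjusted p (0.999 to 1.00) does not separate the loss of a library from that of the block. The direction was the same in all of these.

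*Dlx5* and *Hmx3* were also higher in cKO in both replicates, without passing the threshold. *Dlx5* was at 0.44 on the log2 scale (SE 0.12, edgeR adjusted p = 0.0983), with 0.62 in Rep1 and 0.32 in Rep2, and *Hmx3* at 0.38 (SE 0.16, edgeR adjusted p = 0.702), with 0.58 and 0.29. The *Hmx3* value was 0.12 without cHet Rep1, 0.19 without cKO Rep2, 0.59 without cKO Rep1 and 0.80 without cHet Rep2. *Dlx5* passed it under DESeq2 size factors (edgeR adjusted p = 0.0143), without the filter on low counts (0.0133) and with 1000 genes per cell (0.0352). For the other 5 members the replicates differed in sign, though for *Fbxo2* and *Sox10* the Rep2 value was too small to give a direction. *Oc90* had log2 differences of -0.93 in Rep1 and of 0.13 in Rep2 (fitted -0.27, SE 0.18), and *Gbx2*, with 7 UMIs in cKO Rep1, one of -1.73 and 0.17 (fitted -0.33, SE 0.31). *Lmx1a* had -0.30 and 0.31 (fitted 0.02, SE 0.11). *Fbxo2* had 0.37 and -0.0022 (fitted 0.15, SE 0.20), and *Sox10* had 0.29 and -0.03 (fitted 0.11, SE 0.14). The edgeR adjusted p of each of these 5 was 1.00, which does not show that they did not differ. The median log2 fold change of all genes tested was -0.01. The mesenchyme list stood higher in the cHet library than in the cKO library in both replicates, by more in Rep1. Other mesodermal lists did so too, among them the branchiomeric muscle list (17.6 and 2.15 CPM in cHet and cKO of Rep1, 8.15 and 1.75 CPM in Rep2) and the posterior second heart field list (1.90 and 0.43 CPM, 7.83 and 1.75 CPM), and the part of these 2 in the members' values was not tested. Without the cells that held a mesenchyme UMI, the log2 fold change was 0.30 for *Dlx5* (edgeR adjusted p = 0.291), 0.24 for *Hmx3*, -0.70 for *Gbx2* (SE 0.27, edgeR adjusted p = 0.463), -0.28 for *Oc90*, 0.05 for *Sox10*, 0.02 for *Fbxo2* and -0.088 for *Lmx1a*. None of these 7 passed the threshold, and *Lmx1a* changed sign. Levels are taken over summed cells, so a change in how many cells expressed a gene and a change per cell cannot be told apart from them. The share of cells with an *Hmx2* UMI, which rises with depth and with the level per cell, was 77.5% in cKO against 56.0% in cHet of Rep1 and 62.2% against 52.3% in Rep2. In cells thinned to 5000 UMIs it was 36.0% against 26.2% and 38.1% against 23.5%.

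**Figure D4:**
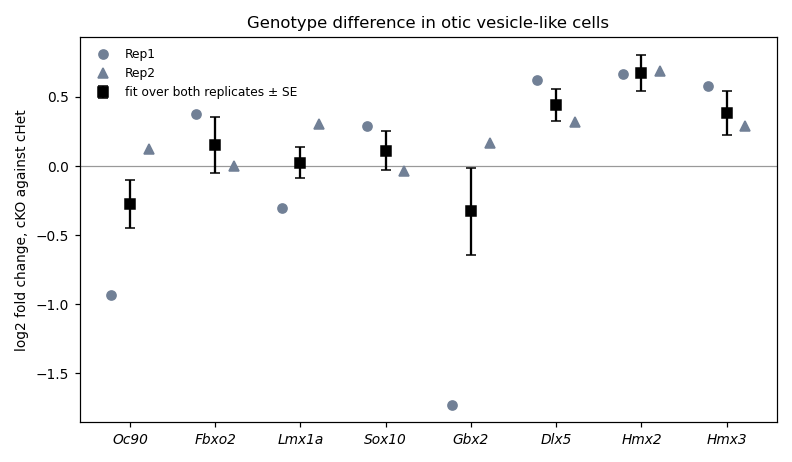
Log2 fold change of the 8 genes in otic vesicle-like cells, cKO against cHet, for Rep1 (circles) and Rep2 (triangles) on log2 CPM with a prior count of 2, and from the edgeR fit over both (squares, ± SE). *Hmx2*, *Dlx5* and *Hmx3* lie above 0 in both replicates, and *Oc90*, *Gbx2* and *Lmx1a* change side.

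In the other epithelia no member passed the threshold. In the ectoderm 3 of the 8 had enough counts to be tested, and 8 of 12615 genes were called (0.0634%). *Dlx5* had a log2 fold change of 0.23 (SE 0.24) there, *Gbx2* one of -0.23 (SE 0.25) and *Lmx1a* one of -0.40 (SE 0.53), each with an edgeR adjusted p of 0.999. *Gbx2* was at -1.24 without cKO Rep2 and turned to 0.22 without cKO Rep1 and to 0.14 after thinning. *Dlx5* was at 0.088 without cKO Rep2 and turned to -0.14 at 1000 genes per cell, and *Lmx1a* was -0.065 without cHet Rep1 and -0.93 without cHet Rep2. At 1000 genes the ectoderm-like cells of cHet Rep1 went from 248 to 1458, so that setting compares a largely different set of barcodes. The other libraries changed less, from 106 to 154 (cKO Rep1), 213 to 281 (cHet Rep2) and 496 to 609 (cKO Rep2). In the endoderm 2 of the 8 could be tested, and 12 of 11480 genes were called (0.105%). *Gbx2* had -0.71 in Rep1 and 0.58 in Rep2 (fitted 0.30, SE 0.25), and *Hmx2*, on the few UMIs given above, 2.73 and -1.97 (fitted -0.47, SE 0.69), each with an edgeR adjusted p of 1.00. The difference between the otic vesicle and the ectoderm in the response to genotype was tested by a type by genotype term, which called 102 of 12649 genes (0.806%) and none of the 8. For *Dlx5* the response was 0.19 (SE 0.24) higher in the vesicle on the log2 scale, and for *Gbx2* the term was -0.12 (SE 0.34). For *Hmx2*, which had 1, 2, 3 and 5 UMIs in the ectoderm, the term was 0.18 (SE 1.12), so a difference between the tissues was not detectable at this depth.

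Other genes of the otic network were read from a list of 79 factors, signals and structural genes of the early ear. In the otic vesicle-like cells 64 of them were tested, 1 was called and 17 had an unadjusted p under 0.05, 10 of these higher in cKO, against 609 of all 11078 genes. Their median log2 fold change was -0.06, against -0.01 over all genes tested. The gene called was *Tbx3*, a T-box repressor, at 31.3 CPM in cHet and 58.0 CPM in cKO of Rep1 and at 52.0 CPM and 82.8 CPM in Rep2 before TMM scaling. It was higher in cKO in both replicates (log2 fold change 0.74, SE 0.15, edgeR adjusted p = 0.0144). The *Tbx3* call was lost without the replicate block (0.76, edgeR adjusted p = 1.00), in DESeq2 (0.79, adjusted p = 1.00), after thinning (0.59, edgeR adjusted p = 0.870) and with doublets kept (0.59, edgeR adjusted p = 0.251). With 1 library and the block left out together, the *Tbx3* value was 0.61 to 0.96. The genes with the largest changes of the same sign in both replicates that were not called were *Otx1*, a homeobox factor of the ventral wall (log2 fold change 1.11, SE 0.47, edgeR adjusted p = 0.715), and *Otogl*, an otogelin relative (0.88, SE 0.47, edgeR adjusted p = 0.966). They were followed by *Wnt6*, which encodes a Wnt ligand (-0.76, SE 0.32, edgeR adjusted p = 0.699), and *Otog* (-0.73, SE 0.32, edgeR adjusted p = 0.781). Of the 64 genes, 21 were higher in cKO in both replicates, 22 were lower in both and the others were mixed. In the ectoderm 0 of 66 and in the endoderm 0 of 59 tested genes of the list were called by edgeR, with 8 and 5 at an unadjusted p under 0.05, against 563 of 12615 and 437 of 11480 over all genes. *Tbx3* in the ectoderm (log2 fold change 0.78, SE 0.20, edgeR adjusted p = 0.281) and *Wnt6* in the endoderm (-1.12, SE 0.28, edgeR adjusted p = 0.142) had the smallest p of those named by the same rule.

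**Figure D5:**
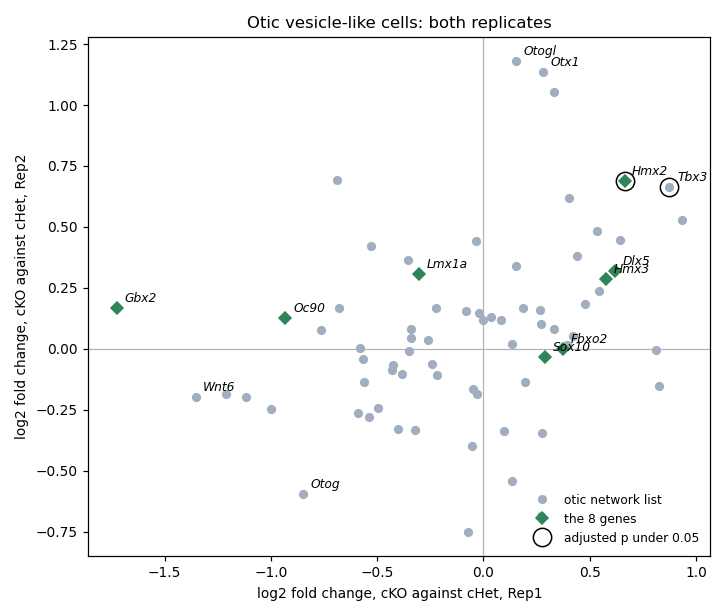
Log2 fold change in otic vesicle-like cells, cKO against cHet, in Rep1 (x) and Rep2 (y), on log2 CPM with a prior count of 2, for the 8 genes (green diamonds) and the 64 tested genes of the otic network list (grey). Rings mark an edgeR adjusted p under 0.05, which *Hmx2* and *Tbx3* reached.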

How the data were processed

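Single-cell RNA counts of 2 cHet and 2 cKO libraries were read. The authors deposited raw UMI counts per gene and barcode, made with Cell Ranger. The file headers give version 7.0.1 in Rep1 and 8.0.1 in Rep2, whereas the submitters' processing notes name 8.0.1 and the mm10 build. Each deposited barcode had at least 500 UMIs. Whether counting used strand is not given in the sources used here. The 8 genes and all gene lists were chosen with earlier results of these data known.

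Cells had at least 3000 genes, at most 10% mitochondrial and 5% hemoglobin UMIs. Scrublet doublet calls, set to the rate each kit is expected to give because the automatic threshold marked only 0.0801% to 1.80%, removed 4.03% to 5.78% of barcodes, and 5869, 6291, 9350 and 11938 cells remained (median 17240.5 to 22972 UMIs per cell). They were clustered (scanpy 1.11.5, Leiden, 2000 variable genes, 30 components, resolution 0.8) without the 8 genes, after a Harmony-like shift meant to align the replicates. Several clusters still came mostly from 1 replicate, such as the neural tube-like one with 290, 247, 21 and 30 cells. A cluster was named where at least 3 listed markers were in 10% of its cells and 2-fold higher. Counts were summed per library and type and tested across all genes with edgeR 4.0.16 (R 4.3.3; quasi-likelihood, TMM, filterByExpr, Benjamini-Hochberg, threshold 0.05, two-sided). The replicate was a block, because the labels give each replicate its own kit; deviations of same-numbered libraries correlated at 0.692 (otic vesicle), 0.707 (ectoderm) and 0.647 (endoderm). In counts simulated for the otic vesicle, 63 of 100 genes changed by 1 on the log2 scale and 34 of 100 changed by 0.5 were recovered. Only genes above a minimum mean count were changed, and the simulated spread followed the trend over genes instead of each gene's own. The shares recovered hold for those conditions only. Intervals are exact Poisson or, for ratios, exact binomial, and cover counting error only. Some genes are not reported here. The text names the 8 genes, genes of the network list past the threshold and the 4 with the largest change of 1 sign in both replicates, and the genes nearest in pattern. Genes named outside this rule are said to have been picked out after their values were seen. Alternatives were DESeq2 1.42.0 and its size factors, no filter, no block, each library left out, thinning to 5000 UMIs, doublets kept, 1000 genes per cell and the 8 genes kept in the clustering.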

Additional observations from a re-analysis of the deposited data

How the results depend on the processing

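Of 177 refitted fold changes of the members, 149 kept their direction and side of the threshold, 8 fell below it, 3 rose past it and 17 reversed. All 8 falls were of *Hmx2* in the vesicle, the only member past the threshold in the main fit. The 149 were mostly of members past it in neither fit. Of 60 recomputed levels 55 moved by less than 1 SD. The numbers of genes called by edgeR, 55 in the otic vesicle, 8 in the ectoderm and 12 in the endoderm, became 127, 20 and 24 with DESeq2 size factors, 1, 0 and 5 in DESeq2, and 0, 0 and 0 without the replicate block. Without the filter on low counts 144 genes were called in the vesicle and 51 in the ectoderm, and for the difference between these types 59 in place of 102. Thinning to 5000 UMIs left 2 in the vesicle and 2 in the endoderm, whereas the number in the ectoderm rose to 12. With doublets kept the numbers were 8, 5 and 5, with 1000 genes per cell 91, 0 and 6, and with the members in the clustering 2 in the ectoderm. At 1000 genes per cell the ectoderm-like cells of cHet Rep1 went from 248 to 1458, a largely different set of barcodes. Leaving out 1 library, in fits without the block, gave 0 to 13 in the vesicle (13 without cHet Rep2, 0 without each of the others), 0 to 0 in the ectoderm and 0 to 0 in the endoderm. The causes were not tested.

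Log2 fold changes reversed for *Lmx1a* in the vesicle without cells holding a mesenchyme marker UMI, an alternative chosen after seeing the data (-0.088), for *Gbx2* in the ectoderm after thinning (0.14), for *Dlx5* in the ectoderm at 1000 genes per cell (-0.14), and for *Hmx2* in the endoderm in DESeq2 (0.12) and without the replicate block (0.23). With each library left out in turn, values in the vesicle ran from -0.88 to 0.088 for *Oc90*, -0.11 to 0.52 for *Fbxo2*, -0.19 to 0.21 for *Lmx1a*, -0.34 to 0.58 for *Sox10* and -2.18 to 0.39 for *Gbx2*. For *Gbx2* they ran from -1.24 to 0.22 in the ectoderm and from -0.94 to 0.72 in the endoderm, and for *Hmx2* in the endoderm from -2.11 to 2.28. *Oc90* and *Fbxo2* reversed only without cKO Rep1, and *Hmx2* in the vesicle kept its direction throughout. With n = 2 per genotype and 7 to 1744 UMIs of a member in the otic cells of a library, small differences could be missed.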
